A study of Nothobranchius furzeri with 16 samples.

Results

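Among 8 brains of turquoise killifish (Nothobranchius furzeri) that received only vehicle, 3 carried high levels of CEBPD transcripts and 5 did not, and the comparison of these 3 with the 5 over all genes is described here. The members were chosen by their measured level of CEBPD, with the threshold at 200 TPM, an abundance of transcripts corrected for gene length and scaled to the same total in every fish. This put vehicle replicates 5, 6 and 7 in the CEBPD-high set and vehicle replicates 1, 2, 3, 4 and 8 in the CEBPD-low set, out of 16 brains in the series. The high brain nearest the threshold was replicate 5 with 263.8 TPM, and the low brain nearest it was replicate 4 with 155.4 TPM. Because the split was made on measured levels of the same brains, differences between the high and low sets are a description and carry no test.

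All fish came from one hatch, were 12 to 14 weeks post hatch and were allocated at random, with both sexes in each group. Over 4 weeks they received 5 intraperitoneal injections, on days 0, 6, 12, 18 and 24, at 10 µl per g of body weight. The 8 vehicle fish received 1% DMSO in a physiological salt solution, and the other 8 received bortezomib, a proteasome inhibitor, at 500 µM. Each library is the brain of 1 fish, so the spread is between animals. Neither the sex of single fish nor the time of sampling or a library batch is stated in the labels.

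CEBPD and CEBPB are transcription factors of the C/EBP family whose genes are switched on within hours by stress hormones, cytokines and other acute stimuli. IGFBP1 is a secreted protein that binds insulin-like growth factors and is known as a gene induced by fasting and glucocorticoids. SIK1 is a kinase induced by cAMP, and GADD45 proteins are small regulators induced by growth arrest and DNA damage. In whole tissue, more cells that express a gene and more RNA per cell cannot be told apart.

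CEBPD stood at 263.8, 284.7 and 269.4 TPM in high replicates 5, 6 and 7. In low replicates 1, 2, 3, 4 and 8 it stood at 80.4, 40.3, 89.0, 155.4 and 112.1 TPM, and in the bortezomib brains it ran from 30.5 through a median of 40.9 to 81.2 TPM. The 3 high brains lay close together, while the 5 low brains were spread out, with replicate 2 lowest and replicate 4 highest.

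The marker genes other than CEBPD were chosen with earlier results of these data known. Their separation of the sets is therefore a description and no support for the split. IGFBP1A (Nfu_g_1_002545) showed the widest gap of the marker genes. It stood at 45.7, 47.5 and 71.5 TPM in the high brains, against 6.7, 5.6, 8.4, 17.0 and 13.6 TPM in low replicates 1, 2, 3, 4 and 8. The sets did not overlap, and the means differed by 2.39 on the log2(TPM + 1) scale. CEBPB (Nfu_g_1_001454) stood at 102.1, 158.2 and 113.1 TPM in the high brains and at 24.5, 23.8, 90.4, 48.4 and 39.4 TPM in the low brains. The sets did not overlap for CEBPB, but low replicate 3 came close to the high brains.

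SIK1 (Nfu_g_1_005922) stood at 39.2, 47.9 and 36.0 TPM in the high brains and at 23.2, 14.4, 21.1, 14.9 and 10.7 TPM in the low brains. GADD45BA (Nfu_g_1_002546) stood at 82.2, 74.7 and 117.4 TPM against 42.1, 36.5, 59.5, 59.8 and 29.7 TPM. Neither gene overlapped between the sets, with differences of 1.27 for SIK1 and 1.01 for GADD45BA on the log2 scale.

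**Figure D1:**
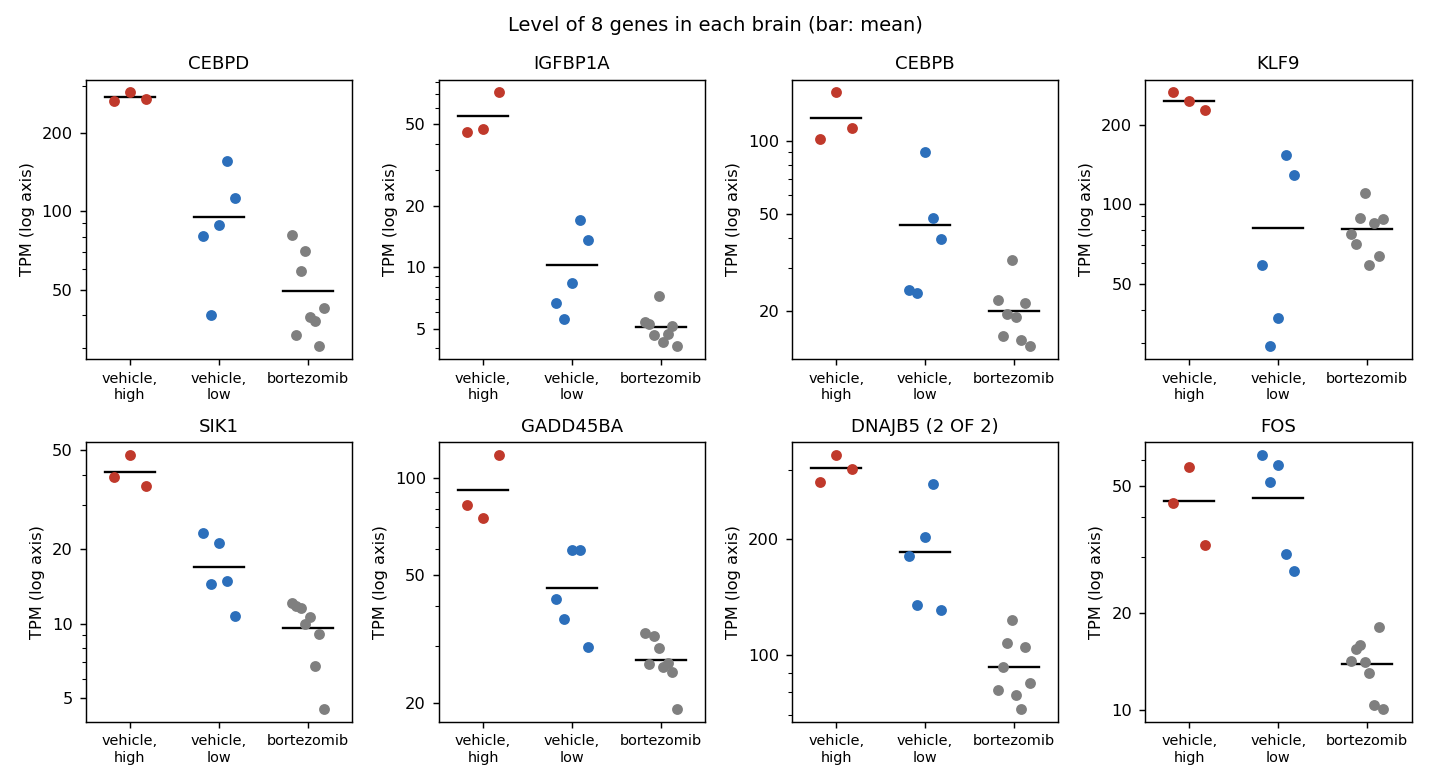
TPM of 8 genes on log axes, with 1 point per brain and a bar at the mean, for 3 CEBPD-high vehicle, 5 CEBPD-low vehicle and 8 bortezomib brains. Apart from CEBPD, where the rule fixed it, the high and low sets do not overlap for any panel except FOS. FOS separates the bortezomib brains (10.1 to 18.1 TPM) from every vehicle brain instead.

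Over the 18529 genes tested, 188 (1.01%) were higher in all 3 high brains than in every low brain, and 1078 (5.82%) were lower in all 3. With a 2-fold difference of means as well, 42 genes (0.227%) were higher and 23 (0.124%) were lower. These counts rest on few brains: leaving out vehicle replicate 1 gave 220 higher and leaving out replicate 7 gave 209, and without replicate 5 there were 67 higher and 62 lower. A set with fewer brains overlaps less easily, but the counts differed with the brain left out. Without replicate 2 there were 37 higher and without replicate 3 there were 36. Leaving out a brain cannot create overlap, so the genes lost from these 2 counts no longer met the 2-fold rule. What else made the counts differ was not tested. The median difference over all genes was -0.07 on the log2 scale, and the balance between higher and lower genes depended on how brains were scaled to each other. With median-of-ratios scaling the median was -0.03, and 333 genes were higher and 519 lower without overlap. With quantile normalization there were 321 and 602. The split held 21.1% of the variance among vehicle brains. No other division of these brains was compared with it, so neither this share nor the counts above set it apart from other divisions. The first principal component of the vehicle brains held 36.4% of the variance and did not follow the split, since low replicate 1 lay on the same side as high replicates 5 and 6.

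Genes known to respond to glucocorticoids were higher in part. Of 17 tested members, 4 were higher without overlap, against 1.01% of all genes, and 0 were lower, against 5.82%. The median difference was 0.48 against -0.07 over all genes. The list also holds models of the receptors NR3C1 and NR3C2, all of which overlapped between the sets. The median is the value of an NR3C2 model, at 6.35 TPM in the high and 4.23 TPM in the low brains. It is therefore not a measure of the target genes alone. The counts without overlap were the same under both other scalings. KLF9, a Krüppel-like transcription factor induced by glucocorticoids and thyroid hormone, stood at 264.4, 244.7 and 226.2 TPM in the high brains. In low replicates 1, 2, 3, 4 and 8 it stood at 58.9, 29.1, 37.1, 154.0 and 128.4 TPM, so the low brains themselves lay far apart. DUSP1, a phosphatase that switches off MAP kinases, stood at 31.4, 56.7 and 31.6 TPM in the high brains and between 9.1 and 20.5 TPM in the low brains.

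The other members without overlap were both models of ERRFI1, an inhibitor of the EGF receptor. ERRFI1 (2 OF 2) stood at 47.3 ± 8.06 TPM (SD, n = 3) in the high brains and at 22.7 ± 5.48 TPM (n = 5) in the low brains. Other known glucocorticoid targets overlapped between the sets. FKBP5, a co-chaperone of the glucocorticoid receptor, stood at 78.9, 73.4 and 16.8 TPM in high replicates 5, 6 and 7 and at 22.7, 0.4, 1.1, 11.8 and 4.9 TPM in the low brains. High replicate 7 thus lay below low replicate 1 for FKBP5, and the bortezomib brains ran from 3.3 to 70.1 TPM. TSC22D3, a glucocorticoid-induced leucine zipper protein, stood at 216 ± 21.8 TPM in the high and 192 ± 31.1 TPM in the low brains, and PER1, a clock repressor, at 21.4 ± 4.61 and 23.5 ± 2.35 TPM.

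Immediate early genes, which neurons and other cells transcribe within minutes of stimulation, were divided. Of 45 tested members, 10 were higher without overlap, against 1.01% of all genes, and 1 was lower, against 5.82%, with a median difference of 0.11. The count was 11 higher with median-of-ratios scaling and 10 with quantile normalization. DUSP1 is on both lists, and the 10 include the marker gene SIK1. ZFP36, which promotes decay of cytokine mRNAs, stood at 125.7, 159.3 and 111.2 TPM in the high brains and between 25.3 and 72.1 TPM in the low brains. IER2 (2 OF 2) stood at 177.9, 147.6 and 184.7 TPM against 70.8 to 103.1 TPM. FOSB, a partner in AP-1, stood at 34.8 ± 6.04 TPM against 17.2 ± 6.54 TPM.

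FOS, NPAS4A and EGR1, picked from the same list after their values were seen, overlapped between the sets. FOS, an AP-1 factor induced by neuronal activity, stood at 44.2, 57.2 and 32.7 TPM in the high brains and at 62.3, 51.4, 57.9, 30.7 and 27.1 TPM in low replicates 1, 2, 3, 4 and 8. The difference of means was 0.00 on the log2 scale, and the highest FOS of all was in a low brain. NPAS4A, a neuronal activity factor, stood at 49.2 ± 6.63 and 43.6 ± 10.1 TPM, and EGR1, a zinc finger factor, at 109 ± 43.9 and 145 ± 27.2 TPM.

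Growth arrest genes were higher in part. Of 22 members of the GADD45 and p53 list, 4 were higher without overlap, against 1.01% of all genes, with a median difference of 0.07 (3 with median-of-ratios scaling). The 4 are the marker gene GADD45BA, GADD45G, CDKN1A and a BAX model of low level, at 2.96 TPM in the high and 0.44 TPM in the low brains. The better expressed BAX model overlapped, at 25.65 and 25.98 TPM. GADD45G (2 OF 3) and GADD45G (3 OF 3) overlapped as well, with differences of -0.46 and -0.10. The 2 that were lower are near the 5.82% of all genes. GADD45G stood at 63.2, 74.4 and 130.4 TPM in the high brains and between 20.2 and 45.3 TPM in the low brains. CDKN1A, the cyclin-dependent kinase inhibitor p21, stood at 75.9, 78.1 and 138.0 TPM against 28.9 to 70.9 TPM. High replicate 7 was highest for GADD45BA, GADD45G and CDKN1A. GADD45AA, a paralogue, did not separate the sets, at 25.98 ± 8.06 against 24.2 ± 3.79 TPM.

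Single genes of nutrient and stress pathways were higher, while most members of their lists overlapped between the sets. TRIB3, a pseudokinase induced by amino acid shortage, stood at 12.4, 22.9 and 13.2 TPM in the high brains and between 2.8 and 6.4 TPM in the low brains. In its list of ATF4 targets, 1 of 20 members was higher without overlap and 2 were lower, near the 1.01% and 5.82% of all genes. ANGPTL4 (2 OF 2), a fasting-induced inhibitor of lipoprotein lipase, stood at 33.8, 31.2 and 19.1 TPM against 8.7 to 16.01 TPM. The better expressed ANGPTL4 model overlapped, at a mean of 60.6 TPM in the high and 76.9 TPM in the low brains, with a difference of -0.36.

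TXNIPA, an inhibitor of thioredoxin, stood at 42.5 ± 7.79 TPM in the high and 25.01 ± 3.62 TPM in the low brains. With ANGPTL4 (2 OF 2) it made 2 of 21 fasting genes higher without overlap, against 1.01% of all genes. In the same list 1 gene was lower, near the 5.82% of all genes. DDIT4 (1 OF 2), a repressor of mTOR signalling, stood at 149 ± 20.0 against 94.3 ± 7.97 TPM and was the 1 of 24 hypoxia genes higher without overlap. Another 1 of the 24 was lower, and these counts are near the 1.01% and 5.82% of all genes. No member of the NF-kB and cytokine list (22 tested), the endoplasmic reticulum stress list (20) or the circadian list (28) separated the sets in either direction in the TPM as deposited. In the first of these lists 1 member was lower without overlap with median-of-ratios scaling, and 2 with quantile normalization.

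MKNK2, a kinase that phosphorylates the translation initiation factor eIF4E, was even within the high set. It stood at 114.0, 117.0 and 114.4 TPM in the high brains and between 35.4 and 67.1 TPM in the low brains. Of 16 endothelial models 2 were higher without overlap, against 1.01% of all genes, with a median difference of -0.02 over the list. The summed level overlapped (226.5 to 329.2 TPM in high and 251.0 to 292.7 TPM in low brains). The 2 models were CLDN5B, a tight junction protein, and SOX17, an endothelial transcription factor. CLDN5B stood at 11.2 ± 2.76 against 4.30 ± 1.01 TPM, and SOX17 at 41.7 ± 9.18 against 26.1 ± 5.40 TPM.

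Some genes of the largest differences had a wide spread among the low brains. PVALB8, a calcium-binding parvalbumin, stood at 48.5, 55.4 and 78.2 TPM in the high brains and at 44.3, 12.7, 4.0, 25.2 and 28.4 TPM in the low brains. CRABP1 (2 OF 2), a retinoic acid binding protein, stood at 126.2, 158.9 and 123.1 TPM in the high brains, at 8.5 TPM in low replicate 3 and between 67.1 and 105.3 TPM in the other low brains. Leaving out single vehicle brains took the CRABP1 (2 OF 2) difference from 1.26 to as little as 0.62, and for PVALB8 low replicate 1 lay close to the high brains.

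Among genes with lower levels in the high brains, the spread differed from gene to gene. SULT6B1, a sulfotransferase, stood at 6.3, 8.0 and 7.0 TPM in the high brains and at 24.0, 18.4, 21.6, 20.2 and 15.6 TPM in the low brains. The sets were far apart, with the lowest low brain (replicate 8) well above the highest high brain (replicate 6). KLF11A, a Krüppel-like repressor, stood at 4.20 ± 1.08 against 9.30 ± 2.35 TPM. GPD1B, a glycerol-phosphate dehydrogenase, stood at 0.3, 6.1 and 7.3 TPM in the high brains and at 114.7, 34.0, 8.9, 27.99 and 19.2 TPM in the low brains. Low replicate 3 came close to the high brains for GPD1B, and low replicate 1 was far above the rest.

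**Figure D2:**
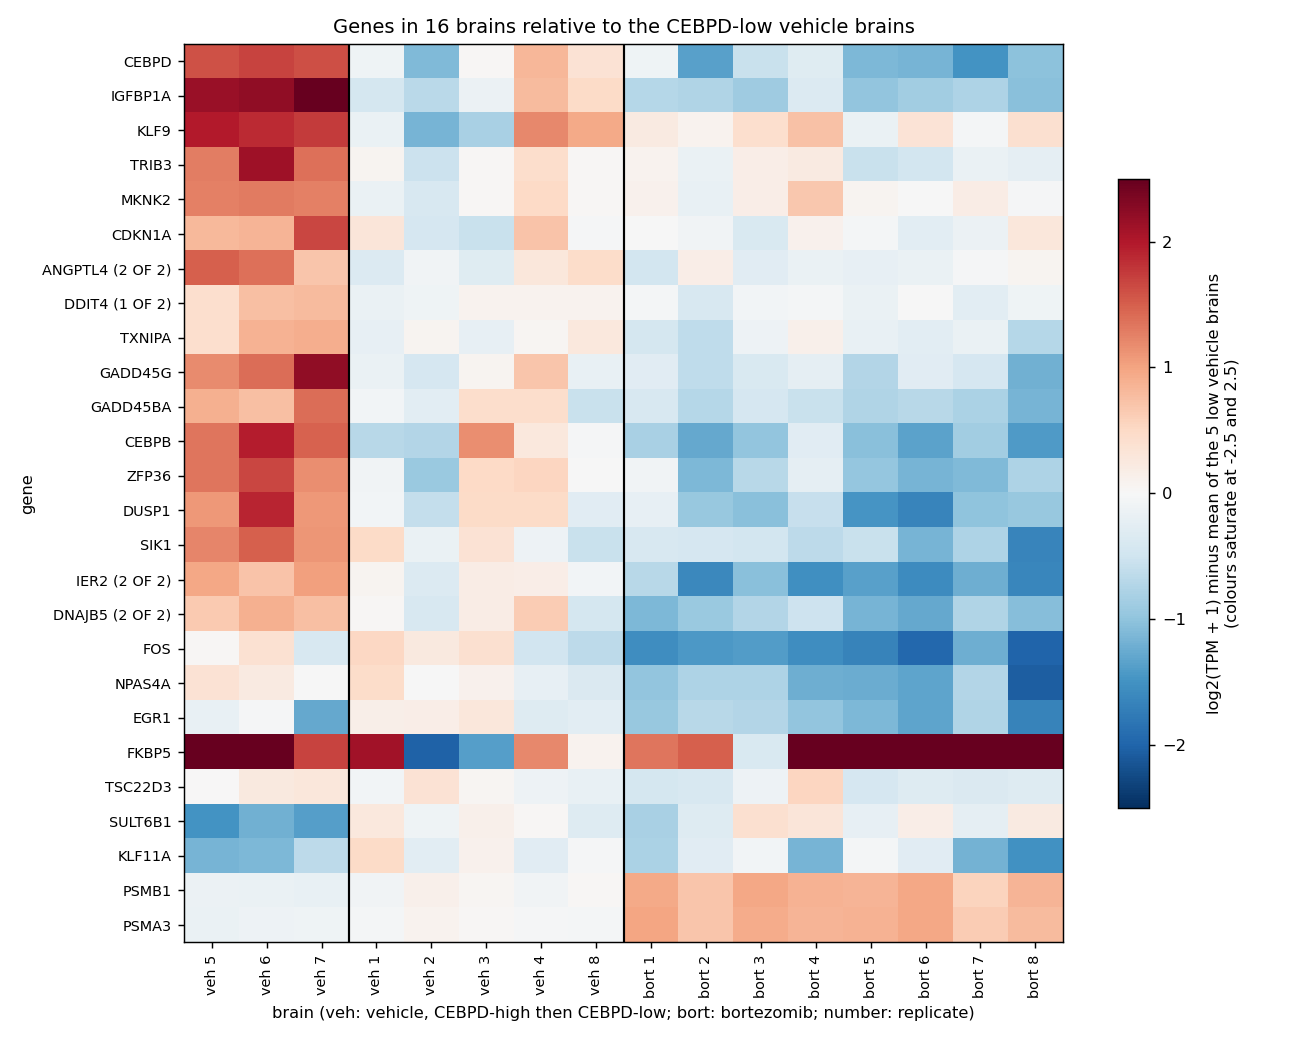
Colour gives log2(TPM + 1) of 26 genes in each of 16 brains minus the mean of the 5 low vehicle brains, with black lines between high vehicle, low vehicle and bortezomib brains. CEBPD to DNAJB5 are red in all 3 high brains, low replicate 4 is pale red for many of them, and FOS, NPAS4A and EGR1 are blue in the bortezomib brains without separating the high from the low brains.

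The low brains were not uniform, and no single order of brains held for all genes. Replicate 4, nearest the CEBPD threshold, was the highest low brain for IGFBP1A, KLF9, TRIB3, MKNK2, CDKN1A, GADD45G and DNAJB5 (2 OF 2). Replicate 3 was highest for CEBPB (90.4 TPM) but among the lowest for KLF9 (37.1 TPM). Replicate 8 had the second-highest KLF9 (128.4 TPM) and the lowest SIK1 (10.7 TPM) and GADD45BA (29.7 TPM).

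All libraries carried neuronal markers, which summed to 3585 to 4971 TPM in the high and 3810 to 4659 TPM in the low brains, as the label of brain requires. Other tissue in the dissection differed between brains. Pituitary hormone transcripts summed to 6092 TPM in high replicate 5 and 2141 TPM in high replicate 6, but to 12.5 TPM in high replicate 7 and 10.1 to 21.3 TPM in the low brains. Replicate 7, without pituitary transcripts, lies above every low brain for CEBPD by the rule. For the other marker genes it also lay above every low brain, which is part of the non-overlap given above. Replicate 7 had the highest IGFBP1A and GADD45BA of all brains. NMS, the neuropeptide neuromedin S, moved with the pituitary transcripts, at 34.2, 24.0 and 3.6 TPM in high replicates 5, 6 and 7 and between 0.5 and 1.8 TPM in the low brains. FKBP5 was likewise lower in replicate 7 than in replicates 5 and 6.

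Without the brains that carried pituitary transcripts, replicate 7 alone stood for the high set, and the differences were 2.79 for IGFBP1A, 1.48 for CEBPB, 1.10 for SIK1, 1.40 for GADD45BA and 1.75 for KLF9. ANGPTL4 (2 OF 2) then differed by 0.70 instead of 1.19.

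Thrombocyte markers, 7 models of which GP1BB made up 64.6%, summed to 44.4 to 59.2 TPM in the high and 27.6 to 42.9 TPM in the low brains without overlap, and none was at 0 in every brain. Pineal and retinal markers summed to 81.6 to 111.7 TPM in the high and 106.4 to 277.4 TPM in the low brains. Of their 10 tested models 4 were lower without overlap, against 5.82% of all genes. SAGA, a rod arrestin, stood at 8.5, 7.4 and 6.1 TPM in the high brains and between 9.6 and 23.1 TPM in the low brains. HOX genes, which mark hindbrain and spinal cord and were examined after their values were seen, summed to 105.1 to 134.5 TPM over 48 models in the high brains and to 3.6 to 111.2 TPM in the low brains. Low replicates 1 and 2 were as high as the high brains for these, and low replicates 3 and 4 were near 0. The part of these tissues in the differences was not tested. The relative depth of the libraries was 0.875 to 1.02 in the high and 0.857 to 1.38 in the low brains, with replicate 2 the deepest.

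The bortezomib brains are given beside both vehicle sets, with the contrast of all 8 bortezomib against all 8 vehicle brains (limma on log2(TPM + 1), Benjamini-Hochberg adjusted over all genes). That contrast shares its vehicle brains with the split, so a gene raised in 3 vehicle brains lowers it by construction. It called 669 genes higher (3.61%) and 232 lower (1.25%), a balance that shifted to 537 and 388 with median-of-ratios scaling and to 547 and 557 with quantile normalization. A fit without the 3 high brains, which compares the bortezomib brains with the 5 low brains, called 472 higher and 160 lower. Of the 45 immediate early genes 24 fell with bortezomib, against 1.25% of all genes, and 0 rose, with a median change of -0.53. These 24 include DUSP1, ZFP36, IER2 (2 OF 2), CYR61, MCL1B and the marker gene SIK1, which also separated the vehicle sets. The rest of the 24, among them FOS and NPAS4A, overlapped between the vehicle sets. FOSB, CSRNP1A, CSRNP1B and CREM separated the vehicle sets but were not called for bortezomib. Without the 3 high brains ZFP36 (-0.77, limma adjusted p = 0.106) and MCL1B (-0.37, adjusted p = 0.105) were not called, and neither was SIK1. DUSP1, IER2 (2 OF 2) and CYR61 were still called there. Since the low brains were chosen by their CEBPD level, the fit without the high brains is no independent check of the genes of the split.

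Several genes of the split were lowest in the bortezomib brains. DNAJB5 (2 OF 2), a heat shock protein family member, stood at 280.3, 328.8 and 302.1 TPM in the high brains, between 131.0 and 276.1 TPM in the low brains and between 72.4 and 123.3 TPM in the bortezomib brains. All 8 bortezomib brains lay below every low brain, with a change of -1.23 ± 0.19 (SE) and an adjusted p of 0.00116 against all vehicle brains (limma), and of -0.95 with an adjusted p of 0.0114 without the high brains. IER2 (2 OF 2) gave the same order, with 36.1 ± 9.31 TPM (n = 8) in bortezomib brains and a change of -1.33 without the high brains (limma adjusted p = 0.000343). DNAJB5 (2 OF 2) was the 1 of 24 heat shock genes higher without overlap, against 1.01% of all genes. In that list 1 was lower, against 5.82%, and the median difference was 0.02. With quantile normalization 2 were higher. The other DNAJB5 model overlapped between the vehicle sets and changed by 0.20 with bortezomib (limma adjusted p = 0.486).

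The marker genes fell with bortezomib against all vehicle brains, and the estimates were smaller against the low brains alone, from which the brains with the most CEBPD had been removed by the rule. CEBPB stood at 14.3 to 32.5 TPM in bortezomib brains, with a change of -1.60 ± 0.35 (limma adjusted p = 0.0152) that was -1.004 (adjusted p = 0.0680) without the high brains. IGFBP1A changed by -1.69 ± 0.44 (limma adjusted p = 0.0350) and by -0.79 (adjusted p = 0.0618) without the high brains. For IGFBP1A the adjusted p was also above 0.05, between 0.052 and 0.067, when any one of 10 single fish was left out.

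CEBPD changed by -1.50 ± 0.36 (limma adjusted p = 0.0253), and no value without the high brains is given because the rule removed them for their CEBPD. SIK1 changed by -1.24 ± 0.28 (limma adjusted p = 0.0181) and by -0.76 (adjusted p = 0.0795) without them. GADD45BA fell by 1.07 and DUSP1 fell by 1.49 (limma adjusted p of 0.0119 and 0.0108), and both were still called without the high brains, at -0.69 and -0.98 (adjusted p of 0.0453 and 0.0451). Without the 4 brains that carried pituitary transcripts (vehicle replicates 5 and 6, bortezomib replicates 6 and 7) none of the 5 marker genes was called, with 6 brains against 6. The changes were then -1.01 for CEBPD, -1.25 for IGFBP1A, -1.22 for CEBPB, -0.87 for SIK1 and -0.90 for GADD45BA, with limma adjusted p of 0.172, 0.175, 0.102, 0.119 and 0.107. CEBPD was also not called without vehicle replicate 7 (-1.36, limma adjusted p = 0.052) or without bortezomib replicate 6 (-1.46, adjusted p = 0.054).

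Another set of genes differed between the vehicle brains while the bortezomib brains lay inside the low range. KLF9 stood at 59.2 to 110.2 TPM in bortezomib brains, with all 8 inside the range of the low brains and a change of -0.45 ± 0.41 (limma adjusted p = 0.554). CDKN1A, CSRNP1B, CREM and ERRFI1 (2 OF 2) also had all 8 bortezomib brains inside the low range, and MKNK2, TRIB3 and ANGPTL4 (2 OF 2) had 7 of 8. None of these 8 genes was called in the contrast of bortezomib with vehicle, with adjusted p from 0.176 for ANGPTL4 (2 OF 2) to 0.554 for KLF9. Without the high brains KLF9 changed by 0.25 and CSRNP1B by -0.01.

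Some genes that fell with bortezomib overlapped between the vehicle sets. FOS stood at 10.1 to 18.1 TPM in bortezomib brains, below all 8 vehicle brains, and fell by 1.60 with or without the high brains (limma adjusted p of 2.8e-05 and 0.000893). NPAS4A fell by 1.21, EGR1 by 0.84 and GADD45AA by 0.76 (limma adjusted p of 0.000569, 0.0198 and 0.00391), each with all 8 bortezomib brains below every low brain. EGR1 changed by -0.82 and was not called without the brains that carried pituitary transcripts (limma adjusted p = 0.107). Proteasome subunits rose with bortezomib in 38 of 39 members, against 3.61% of all genes, with a median of 0.71. In the split 10 of the 39 were lower in the high brains without overlap, against 5.82% of all genes, with a median difference of -0.13, but with either other scaling 2 were lower and 1 was higher, and the median was -0.08. PSMB1, a subunit of the catalytic core, stood at 148 ± 2.19 TPM in the high, 166 ± 10.8 in the low and 299 ± 29.1 TPM in the bortezomib brains.

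**Figure D3:**
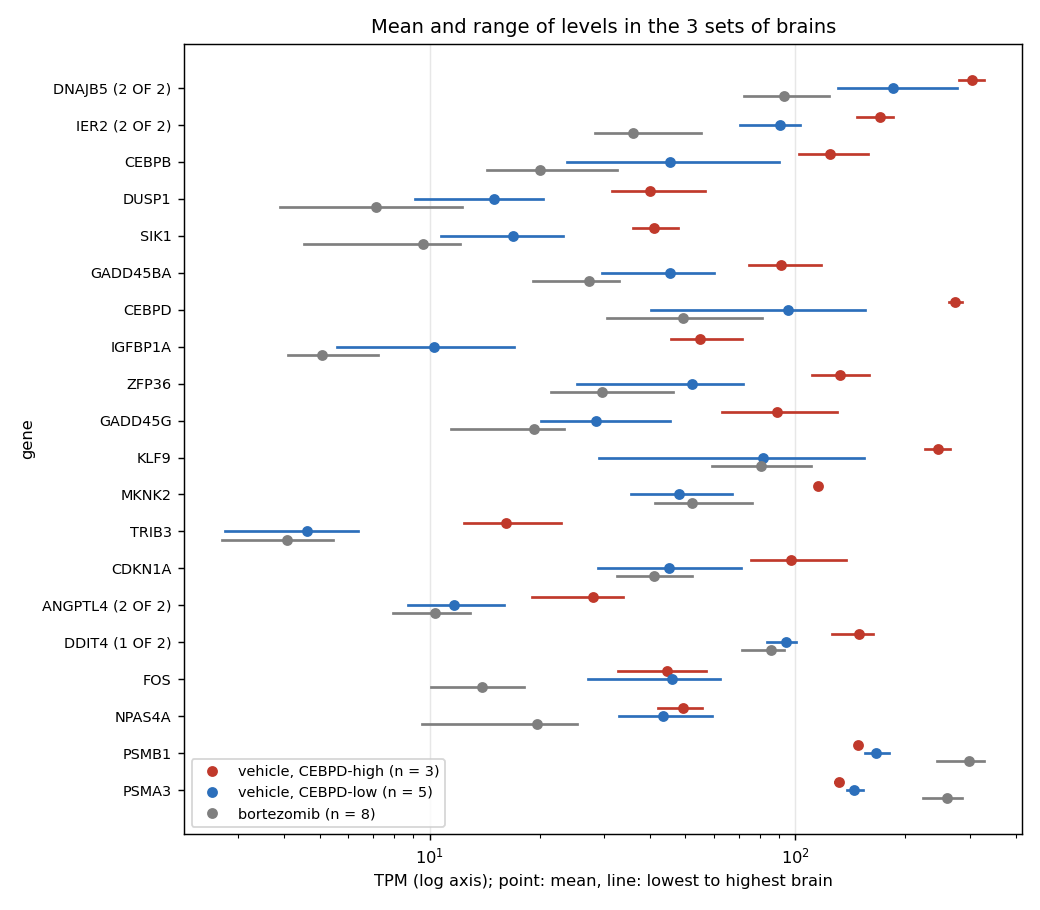
Mean (point) and lowest to highest brain (line) in TPM on a log axis for 20 genes, in CEBPD-high vehicle (n = 3), CEBPD-low vehicle (n = 5) and bortezomib (n = 8) brains. From DNAJB5 to ZFP36 the bortezomib means lie below the low vehicle means, from KLF9 to ANGPTL4 they lie near them, and FOS and NPAS4A separate only the bortezomib brains.

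The bortezomib brains took no part in the split, and they were used to ask whether the same genes follow CEBPD there. CEBPD ran from 30.5 to 81.2 TPM in these 8 brains. No gene had a slope on log2 CEBPD that passed the adjusted threshold (0 of 18528 in either direction, 0.0%; limma with Benjamini-Hochberg adjustment). The slopes of the 4 other marker genes were 0.20 for IGFBP1A, 0.43 for CEBPB, 0.27 for SIK1 and 0.31 for GADD45BA, and a missed threshold over 8 brains does not show that slopes of this size are absent. At an unadjusted p under 0.05, 368 slopes were positive (1.99%) and 400 were negative (2.16%).

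Of the other 41 genes that were at least 2-fold higher in high brains, a set that changes when single vehicle brains are left out, 28 had a positive slope (68.3%) against 43.0% of all genes, but so had 15 of the 23 genes that were lower (65.2%). Among the 41, 4 positive slopes and 1 negative slope had an unadjusted p under 0.05. ZFP36 had the smallest p among positive slopes, 0.78 ± 0.12 (SE), at an unadjusted p of 0.000102 and an adjusted p of 0.632. It stood at 46.3 and 42.0 TPM in bortezomib replicates 1 and 4, which had the most CEBPD, and between 21.5 and 29.9 TPM in the other 6. FOSB, by contrast, had a negative slope of -0.55 ± 0.17.

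The 4 other marker genes had positive correlations with CEBPD in the bortezomib brains that did not pass an exact permutation test over 40320 pairings. GADD45BA had a Pearson r of 0.64 (exact p = 0.0800) and a Spearman rho of 0.67 (exact p = 0.0831). CEBPB had an r of 0.59 (exact p = 0.118) and a rho of 0.45 (exact p = 0.267). IGFBP1A had an r of 0.47 (exact p = 0.249) and a rho of 0.24 (exact p = 0.582), and SIK1 an r of 0.31 (exact p = 0.474) and a rho of 0.33 (exact p = 0.428).

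The 2 brains farthest from the median of CEBPD were bortezomib replicates 1 and 4. Without them r was 0.39 for GADD45BA, -0.02 for CEBPB, -0.48 for IGFBP1A and 0.04 for SIK1. Over all genes the adjusted p of each of the 4 slopes was 1.00 (limma).

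**Figure D4:**
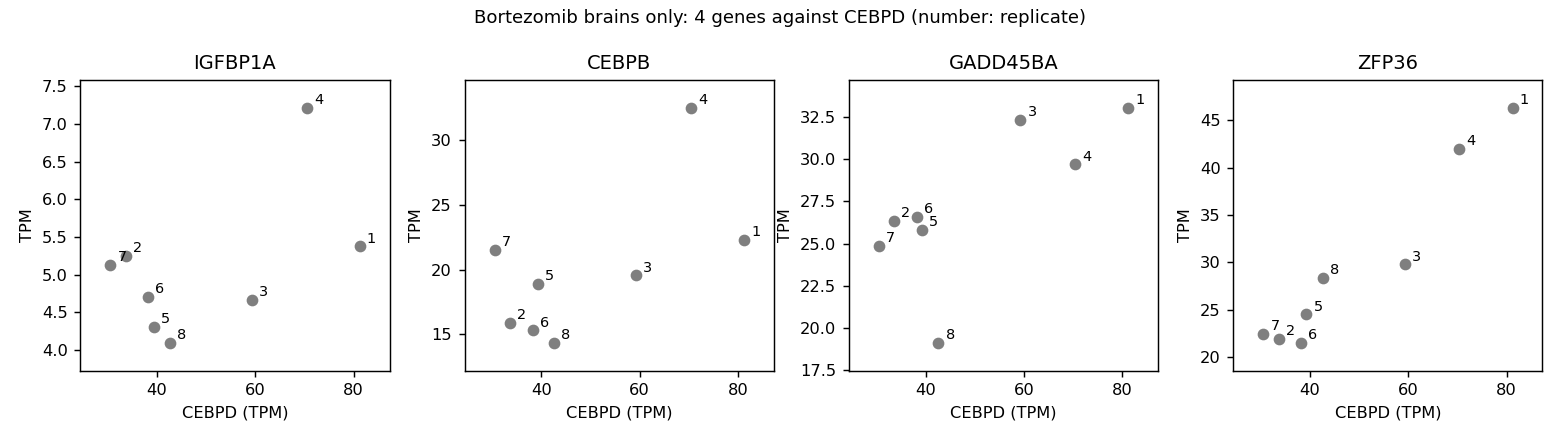
TPM of IGFBP1A, CEBPB, GADD45BA and ZFP36 against TPM of CEBPD in the 8 bortezomib brains, each point numbered by replicate. ZFP36 runs from about 21.5 TPM to 46.3 TPM and stands apart in replicates 1 and 4. It had the smallest p among positive slopes, and its slope did not pass the adjusted threshold. IGFBP1A (7.22 TPM) and CEBPB (32.5 TPM) are highest in replicate 4 and not in replicate 1, which has the most CEBPD.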

How the data were processed

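Individual brains of 16 killifish were measured by RNA-seq. Demultiplexing with bcl2fastq 2.20.0.422 and alignment software STAR are listed per the submitters' processing notes. Which counter, build and annotation were used is not given in the sources used here. A single table was deposited by the authors, with TPM values for 26739 gene models, and each column sums to 1000000 TPM. Since read totals cannot be recovered from TPM, counting intervals are omitted. Relative depth was recovered from the steps between low values. Gene symbols come from the file, 5987 models share a symbol with another model, and reads of near-identical copies may be split between them. The identifiers had 0 matches among RefSeq genes, so no coordinates or sequences are given.

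Vehicle brains were split at 200 TPM of CEBPD. The members, gene lists and tests were chosen with earlier results of these data known. Genes entered the fits when 8 or more fish had 1 TPM or more (18529). Differences are of mean log2(TPM + 1), which understates low genes. Bortezomib against vehicle and the slope on CEBPD within bortezomib brains were fitted with limma 3.58.1 (R 4.3.3) using an intensity trend, two-sided, with Benjamini-Hochberg adjustment at 0.05. Both were tested on simulated data. Tables and plots used Python 3.11.15, numpy 2.4.6, pandas 2.3.3 and matplotlib 3.10.9.

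Genes were named by rule: the 5 markers, the 15 largest positive and 10 largest negative differences without overlap at a mean of at least 5 TPM, the 3 members with the largest difference in each of 14 pathway lists, and the 8 smallest slope p in each direction. Others were named after their values were seen: FOS, NPAS4A, EGR1, FOSB, IER2, CSRNP1B, CREM, ERRFI1, GADD45AA, TSC22D3, PER1, CLDN5B, SOX17, PSMB1 and the HOX models. CYR61, MCL1B and CSRNP1A were named because they were among the immediate early genes that separated the vehicle sets. Not every gene picked by rule is described, for example HSD11B2 of the glucocorticoid list. List counts under other scalings were added after the values were seen. Alternatives were other pseudocounts, filters and scalings, a depth covariate, a replicate block, a robust variance estimate, CEBPD in TPM as predictor, and leaving out single fish, the high brains or the brains with pituitary transcripts.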

Additional observations from a re-analysis of the deposited data

Results flagged for a closer look

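Among 26 genes of the split, each examined in the 8 vehicle and the 8 bortezomib brains (52 groups), 9 groups held a brain whose gap to its nearest neighbour was over 0.526 of the group's range. This limit flags about 5% of groups of 8 normally distributed values. TPM need not be normally distributed, and the genes were chosen by their values and are not independent of each other. The share flagged by chance here is therefore unknown. In all 9 groups the brain that stood apart was the highest. Bortezomib replicate 4 stood apart for 3 genes, with 7.22 TPM of IGFBP1A, 32.5 TPM of CEBPB and 76.1 TPM of MKNK2, where the next brains had 5.38, 22.3 and 53.4 TPM. Vehicle replicate 6 stood apart for DUSP1 at 56.7 TPM, with the next brain at 31.6 TPM. GPD1B reached 114.7 TPM in vehicle replicate 1 and 105.8 TPM in bortezomib replicate 5, and the next brains of each group had 34.0 and 23.5 TPM. IRF9, an interferon response factor, reached 100.4 TPM in vehicle replicate 8 and 130.8 TPM in bortezomib replicate 3, and B2M (1 OF 2), an interferon-induced antigen presentation gene, reached 851.5 TPM in the same bortezomib brain.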

How the results depend on the processing

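The number of genes that separated the vehicle sets by 2-fold depended on the settings. Against 42 higher and 23 lower, a pseudocount of 0.1 gave 43 lower, a pseudocount of 5 gave 17 higher and 7 lower, a filter at 5 TPM gave 24 and 14, and leaving out the brains with pituitary transcripts gave 157 and 256, where 1 high brain remained and non-overlap is easier to meet. Leaving out 1 vehicle brain gave 36 to 220 higher, the most without replicate 1 (220) and replicate 7 (209), and 31 to 62 lower, the most without replicate 5. For bortezomib against vehicle (669 higher, 232 lower), median-of-ratios scaling gave 388 lower and quantile normalization 557 lower, with 537 and 547 higher. Leaving out the brains with pituitary transcripts gave 259 higher and 66 lower, and leaving out 1 brain gave 369 to 890 higher and 116 to 269 lower, both lowest without bortezomib replicate 6. Deviations from the group means gave r from -0.24 to 0.41 between same-numbered brains, above 0.1 in 3 of 8 pairs, and 0 brains were closest to their own number. These correlations cannot exclude that brains of the same number shared a batch or handling, which the labels do not state. The replicate block gave 375 higher and 116 lower. CEBPD, IGFBP1A, ZFP36, DUSP1 and MCL1B were not called in it (limma adjusted p of 0.061, 0.061, 0.060, 0.054 and 0.051). No slope on CEBPD was called under any alternative run (0 in each direction). Leave-one-out values of r, added after the data were seen, ran from 0.42 to 0.77 for CEBPB (0.77 without bortezomib replicate 7, exact p = 0.0339), 0.50 to 0.93 for GADD45BA (0.93 without replicate 8, exact p = 0.00873), 0.16 to 0.56 for IGFBP1A and 0.14 to 0.48 for SIK1.

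No named gene that was called for bortezomib changed sign under an alternative, while some that were not called did, such as KLF9 (-0.72 to 0.25), MKNK2 (-0.48 to 0.12), CREM (-0.25 to 0.10) and PVALB8 (-0.56 to 0.44). Without the brains with pituitary transcripts, CEBPD, CEBPB, SIK1, GADD45BA, DUSP1, ZFP36, IGFBP1A and EGR1 were no longer called for bortezomib (limma adjusted p of 0.172, 0.102, 0.119, 0.107, 0.0736, 0.158, 0.175 and 0.107). Further genes lost the call there, among them MCL1B, CYR61 and SOX17 (limma adjusted p of 0.163, 0.0686 and 0.0839). CEBPD and ZFP36 also lost the call without vehicle replicate 7 (0.052 each) and without bortezomib replicate 6 (0.054 and 0.055). MCL1B lost it without bortezomib replicate 6 too (0.055). FOS, NPAS4A, IER2 (2 OF 2), DNAJB5 (2 OF 2) and GADD45AA were called under all 26 alternatives. The causes were not tested. TPM gives no read counts, so the precision of low genes is unknown.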

Other observations

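Within the 8 bortezomib brains, some genes with the smallest unadjusted p for a slope on CEBPD had not separated the vehicle sets, or had done so in the opposite direction. HSPB1, a small heat shock protein, had a slope of 1.07 ± 0.17 (SE; limma adjusted p = 0.711) and ran from 130.3 to 367.9 TPM in these brains, while it overlapped between the high and low vehicle brains. HES5 (2 OF 2), a Notch target of neural progenitors, had a slope of -0.88 ± 0.14 (limma adjusted p = 0.653) and overlapped between the vehicle sets as well. PSAP, a precursor of lysosomal activator proteins, had a slope of 0.42 ± 0.08 (limma adjusted p = 0.887) but was lower in every high vehicle brain (209 to 223 TPM) than in every low one (246 to 286 TPM). All 14 oligodendrocyte markers had positive slopes, as had 15 of 19 microglial and myeloid markers, against 43.0% over all genes. At an unadjusted p under 0.05 (limma), 5 and 6 of them were positive, against 1.99% of all genes. Proteasome subunits leaned the same way, with 36 of 39 positive and 5 at that level. Endoplasmic reticulum stress genes (3 of 20 positive) and circadian genes (7 of 28) leaned the other way. None of these slopes passed the adjusted threshold. Markers of a cell type can vary together, so their slopes are not independent of each other. Bortezomib replicate 1, with the most CEBPD, also had the largest sum of oligodendrocyte markers (11193 TPM, against 6009 to 9352 TPM in the other bortezomib brains). In the vehicle split 3 of the 14 oligodendrocyte markers were lower in the high brains without overlap, against 5.82% of all genes, with a median difference of -0.13.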
